A study of Mus musculus with 12 samples.

Results

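Oxidation of small RNA from 100 ng of mouse testis total RNA was examined in 4 of the 12 libraries of the study, 2 before and 2 after treatment with sodium periodate (NaIO4). The libraries were chosen by their labels, which give the RNA input as 100 ng and the state as before or after oxidation. All 12 libraries came from testis RNA of male C57BL/6 mice aged 4 months and held small RNAs of 17 to 40 nt, and 4 libraries each were made from 10, 50 and 100 ng. The 2 libraries of a group are technical replicates of the same RNA, so every p-value here measures the spread between libraries and not between animals. All 12 share the library method labelled 10ng-seq and got spike-in RNA in a volume proportional to the input. The labels name no mouse, pool, day or batch for any single library.

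Periodate opens the last ribose of an RNA when both of its hydroxyl groups are free, and such a 3' end can no longer be joined to a sequencing adapter. A 2'-O-methyl group at the last base protects the end. In mice the methyltransferase HENMT1 adds this group to piRNAs, the guides that PIWI proteins of germ cells use to silence transposons, whereas miRNAs, the guides of Argonaute proteins, mostly end in free hydroxyls. The comparison of libraries before and after oxidation asks which small RNAs carry the protected end.

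The miRNAs on which the results turn are shown first, because their seeds (bases 2 to 8, in capitals) group them into the families described below. Of the 141 miRNAs with a mean of at least 5 RPM (reads normalised to the size of the library), 123 matched a mature sequence in RefSeq (build GRCm38.p6). They held 89 different seeds, and 19 of the seeds were shared by 53 miRNAs. Shown are abundant miRNAs of different seeds, members that share the seeds of miR-100-5p, let-7f-5p and miR-148a-3p, and 3 names whose change after oxidation did not pass the test:
miR-741-3p: uGAGAGAUgccauucuauguaga
miR-10b-5p: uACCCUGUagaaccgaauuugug
miR-100-5p: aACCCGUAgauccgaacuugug
miR-99a-5p: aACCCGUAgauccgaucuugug
miR-99b-5p: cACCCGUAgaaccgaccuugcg
let-7f-5p: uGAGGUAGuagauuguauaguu
let-7g-5p: uGAGGUAGuaguuuguacaguu
miR-148a-3p: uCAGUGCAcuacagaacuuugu
miR-148b-3p: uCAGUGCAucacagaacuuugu
miR-3471: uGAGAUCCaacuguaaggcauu
miR-3470b: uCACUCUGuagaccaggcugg
miR-7217-3p: uGAGAACCcacaagcaagaaga

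From the piRNA table, 3 of the most abundant sequences that match a single non-coding gene are shown, with base 1 and base 10 in capitals. A U at base 1 (written T in the deposited table) is typical of primary piRNAs, and an A at base 10 of piRNAs made in response to another piRNA's cut. The 30-nt sequence P1 lay in exon 1 of 4 of the lincRNA Gm21269, at chr7:73824992-73825021 on the plus strand of GRCm38. The 31-nt sequence P4 lay in exon 1 of 5 of the antisense gene Gm14244, at chr2:127692460-127692490 on the plus strand. The 33-nt sequence P9 lay in exon 4 of 4 of the lincRNA Gm10619, at chr7:73809728-73809760 on the minus strand.
P1: TatgtgaatTtcaactgttggctccacagg
P4: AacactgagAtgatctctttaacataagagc
P9: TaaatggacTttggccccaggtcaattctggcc

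The RPM values of the 4 libraries rested on 2965389 to 3347004 reads, recovered from the value of 1 read in the piRNA table. A count of 3 reads in a library, the most that a sequence with no read could plausibly have had, was worth 0.896 to 1.01 RPM, which covers counting error only. Across piRNA sequences the 2 libraries before oxidation correlated at 0.937 and the 2 after at 0.884 on the log2 scale, and across miRNAs at 0.994 and 0.897. Values that exist once per library were compared by an exact 2-sided permutation test, which for 2 against 2 libraries cannot give a p below 0.333. Class totals and shares whose groups did not overlap all stood at that p, so they are given by library and called higher or lower as a description.

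The 6 spike-in RNAs form 3 pairs, sp1, sp2 and sp3, each also present as a form whose name ends in Me, taken here as the form with a methylated 3' end. Reads of sp1 went from 1908 and 1883 before oxidation to 1 and 3 after it. Reads of sp2 went from 1934 and 1814 to 9 and 10, and reads of sp3 from 10675 and 12053 to 8 and 12. All 3 unmethylated spike-ins were thus near 0 in both oxidized libraries, while their methylated partners were higher. Reads of sp1Me went from 204 and 192 to 1252 and 1080, those of sp2Me from 37984 and 40786 to 259160 and 207549, and those of sp3Me from 1576 and 1545 to 4643 and 3950. On the log2 scale the means of the methylated forms were higher by 2.56, 2.57 and 1.46, least for sp3Me.

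The unmethylated share of all spike-in reads was 26.7% and 27.0% before oxidation. After oxidation it was 0.00679% (exact Clopper-Pearson 95% interval 0.00402% to 0.0107%) and 0.0118% (0.00761% to 0.0174%). Because sp2Me alone made up 97.8% and 97.6% of the spike-in reads after oxidation, the pairs were also taken singly. In the sp1 pair the unmethylated share fell from 90.3% and 90.7% to 0.0798% (0.00202% to 0.444%) and 0.277% (0.0572% to 0.807%). In the sp3 pair it fell from 87.1% and 88.6% to 0.172% and 0.303%, and in the sp2 pair from 4.84% and 4.26% to 0.00347% and 0.00482%. The log2 change of the mean share was -11.50 over all spike-ins and -8.99, -10.10 and -8.53 in the sp1, sp2 and sp3 pairs.

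**Figure D1:**
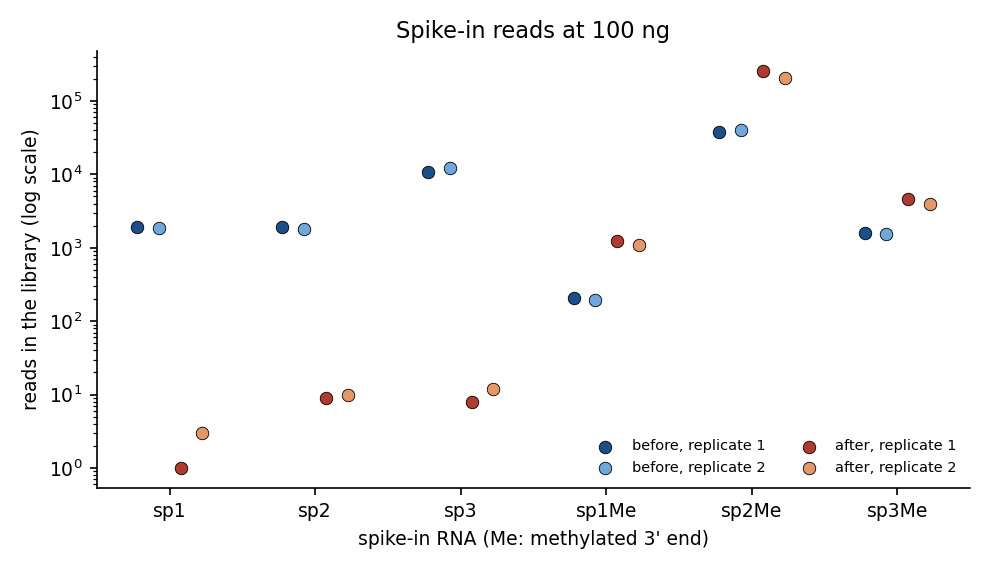
Reads of each spike-in RNA (x axis) in each library at 100 ng (y axis, log scale), with 1 point per library. The 3 unmethylated spike-ins sit between 1814 and 12053 reads before oxidation and between 1 and 12 after it, and each methylated spike-in is higher in both oxidized libraries than in both others.

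The miRNAs were almost removed by oxidation. Their summed level was 135591 and 138463 RPM before and 263.2 and 295.9 RPM after oxidation, 490-fold lower. As a share of reads that was 13.6% and 13.8% before and 0.0263% and 0.0296% after. The number of miRNAs with any read went from 361 and 357 to 74 and 65. Against the methylated spike-ins the difference was larger, from 10.1 and 10.7 miRNA reads per methylated spike-in read to 0.00332 and 0.00441, a log2 change of -11.39.

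Of the 141 tested miRNAs, 134 (95%) were lower after oxidation and 0 (0.0%) higher by limma at an adjusted p under 0.05. The number at an unadjusted p under 0.05, in either direction, was also 134. The median log2 fold change was -6.29 on the log2(RPM + 1) scale, which understates the fall of weak miRNAs. Libraries did not overlap for 139 miRNAs that were lower (98.6%) and for 1 that was higher (0.709%). In 69 of the tested miRNAs neither oxidized library had a read, and these could pass the filter on low values through their level before oxidation or at other inputs. A fit of the 4 libraries at 100 ng alone called 136 lower and 1 higher.

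The miRNA of highest level was miR-741-3p, a member of the X-linked cluster that is abundant in testis, encoded at chrX:66796809-66796831 on the minus strand. It stood at 33938 and 33834 RPM before and at 21.5 and 40.1 RPM after oxidation. The change was -10.12 ± 0.27 (SE) in log2 (limma adjusted p = 5.5e-10), or 1100-fold. Of the X-linked cluster, 24 of 24 tested members were lower, with a median log2 fold change of -7.37 against -6.29 over all tested miRNAs. These medians depend on the level before oxidation. Over tested miRNAs the median ran from -2.61 for those below 10 RPM to -9.82 in the highest range of level. The 2 medians therefore do not set the cluster apart, and a difference at matched levels was not tested. Summed over the cluster, 49587 and 49739 RPM became 43.0 and 53.1 RPM.

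The list with the next highest sum held miR-10 and its relatives miR-99, miR-100 and miR-125, which lie in Hox clusters or beside let-7 genes. MiR-10b-5p went from 10952 and 11575 RPM to 5.98 and 9.47 RPM. MiR-100-5p, which shares its seed ACCCGUA with miR-99a-5p and miR-99b-5p, went from 10349 and 11400 RPM to 4.48 and 9.79 RPM. MiR-99a-5p went from 8038 and 8796 RPM to 3.59 and 7.26 RPM. For these 3 miRNAs less than 0.1% of the level was left, whereas miR-99b-5p, from 4187 and 4849 RPM to 8.96 and 9.47 RPM, kept 0.204%. All 7 tested members of the group were lower, and their sum fell 1136-fold.

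The let-7 family, regulators of differentiation that share the seed GAGGUAG, was lower in 9 of 9 tested members. Its sum went from 11633 and 11170 RPM to 8.37 and 7.90 RPM. Within it let-7f-5p went from 3406 and 3303 RPM to 1.79 and 2.21 RPM and let-7g-5p from 2783 and 2843 RPM to 0.598 and 1.89 RPM. The deepest fold among the 20 most abundant miRNAs was that of miR-148a-3p, from 2585 and 2534 RPM to 1.20 and 0.316 RPM, or 3388-fold. The shallowest among those 20 was the 255-fold fall of miR-30c-5p, and their median was 1118-fold.

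Lists of other miRNA families fell as well. All 8 tested members of the miR-30 family, 6 of miR-17-92 and its paralogs, 4 of the miR-15/16 family and 4 of miR-34 and miR-449, miRNAs of meiotic and later male germ cells, were lower. MiR-34c-5p, the highest of the last list, went from 2256 and 2152 RPM to 2.09 and 4.11 RPM. MiR-183-5p, of a cluster expressed in sensory and germ cells, went from 177.0 and 221.0 RPM to no read in either oxidized library, which is at least 432-fold lower against 3 reads over the group. MiR-127-3p of the imprinted Dlk1-Dio3 cluster went from 134.2 and 133.8 RPM to no read, at least 291-fold lower. In each of the 19 shared seeds all tested members were lower, and in each of 16 hairpins with both arms tested both arms were lower. These counts and those of the families stand beside 134 of 141 (95%) lower over all tested miRNAs, and do not set them apart.

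Markers of other cell types in the testis fell with the rest (95% of all tested miRNAs were lower). In the list of Sertoli and other gonadal somatic cells 12 of 12 tested miRNAs were lower, with the sum going from 1499 and 1433 RPM to 0.896 and 1.58 RPM. MiR-202-5p, made in Sertoli cells, went from 191.2 and 178.0 RPM to no read. In the list of vessel and muscle cells 4 of 4 were lower, led by miR-143-3p of smooth muscle, from 13414 and 13611 RPM to 11.1 and 20.8 RPM. The blood cell list had no tested member and summed to 10.5 and 5.49 RPM before and 0.299 and 0.316 RPM after oxidation. The liver and gut epithelium list had 1 tested member, miR-192-5p, from 262.4 and 257.6 RPM to no read, at least 564-fold lower.

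The other 7 tested miRNA names were not called. They are miR-7217-3p and the 6 tested members of a group (miR-3470a, miR-3470b, miR-3471, miR-5099, miR-7214-5p and miR-468-5p) that was picked in an earlier look at these data, so the group is not independent of the result. They held 0.138% of the miRNA RPM before oxidation and 40.96% after it, while the 134 others summed to 136338 RPM before and 151 RPM after. Their lack of a call depended on the fit. Of the 7, 4 passed the test in the fit of the 4 libraries at 100 ng alone, and 5 when scaled to methylated spike-ins. MiR-3471 stood at 46.5 and 39.0 RPM before and 31.7 and 24.9 RPM after oxidation, a log2 change of -0.58 ± 1.06 (limma adjusted p = 0.595). MiR-7214-5p stood at 36.1 and 31.7 RPM and then at 28.4 and 23.7 RPM, a change of -0.37 ± 0.46 (limma adjusted p = 0.446). For both, the oxidized libraries were lower than the others by less than the error of the fit.

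MiR-5099 was the single miRNA higher in both oxidized libraries, at 7.76 and 11.0 RPM before and 17.9 and 26.8 RPM after, but its change of 1.16 ± 0.88 did not pass the test (limma adjusted p = 0.226). MiR-3470a (63.1 and 44.8 RPM, then 18.2 and 22.4 RPM) and miR-7217-3p (36.1 and 26.8 RPM, then 8.37 and 11.7 RPM) were lower in both oxidized libraries, with limma adjusted p of 0.107 and 0.077. MiR-3470b went from 19.2 and 13.7 RPM to 3.88 and 3.47 RPM (limma adjusted p = 0.134). MiR-468-5p, at 0.337 and 3.05 RPM and then 6.57 and 0.947 RPM, overlapped, and leaving out replicate 1 before or after oxidation turned its log2 change from 0.72 to -0.076 or -0.26. Among the miRNAs that were called, miR-3535 fell less than most, from 43.5 and 46.0 RPM to 8.07 and 4.11 RPM (log2 -2.75, limma adjusted p = 0.00302).

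**Figure D2:**
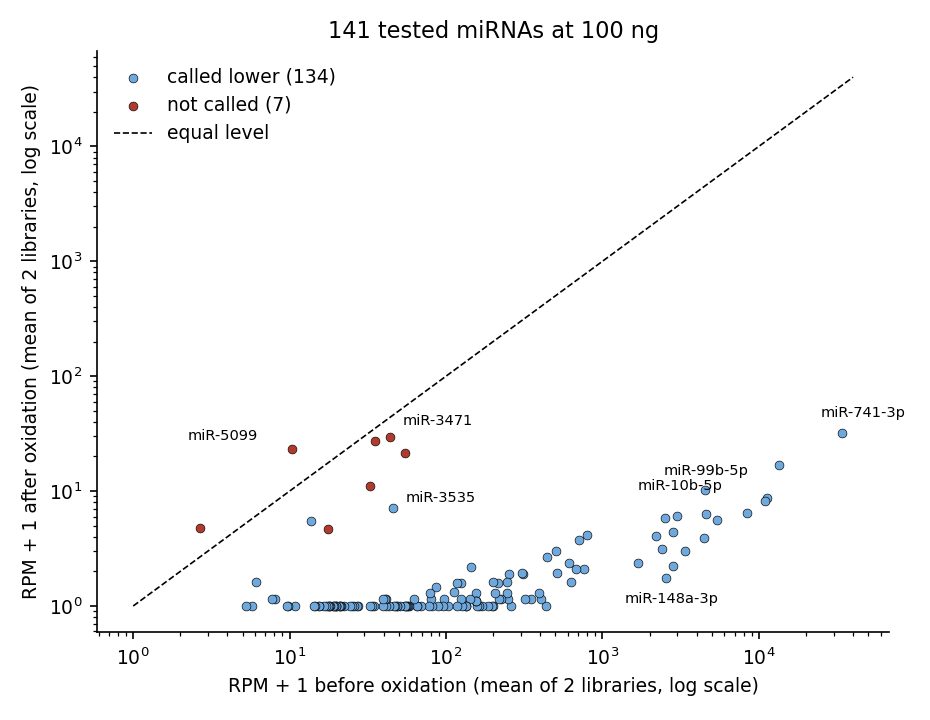
Mean RPM + 1 of the 141 tested miRNAs before (x axis) and after oxidation (y axis) at 100 ng, both on log scales, with the dashed line at equal levels. Most of the 134 called lower lie farther from the line than the 7 that were not called, which stood at no more than 63.1 RPM in any library before oxidation.

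The piRNA table held 799156 and 795481 RPM before and 914542 and 907354 RPM after oxidation, 1.14-fold higher (log2 0.19). As a share of reads other than miRNA reads, it was 92.5% and 92.3% before and 91.5% and 90.8% after, a log2 change of -0.020. Reads in neither table went from 65253 and 66056 RPM to 85195 and 92350 RPM. There were 5.89 and 5.75 piRNA reads for each miRNA read before oxidation and 3474 and 3066 after it.

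Against the methylated spike-ins the piRNA total was lower after oxidation. There were 59.6 and 61.4 piRNA reads per methylated spike-in read before oxidation and 11.5 and 13.5 after, a log2 change of -2.27. With sp1Me or sp2Me alone the change was -2.30, and with sp3Me alone it was -1.20. Scaling to methylated spike-ins shifts log2 changes downward, by up to about 2.47 (the log2 change of their reads as a share of the library) and by less for weak sequences, because of the pseudocount. The median moved from 0.25 to -1.95 over tested piRNA sequences and from -6.29 to -7.65 over tested miRNAs, so each rise below is a rise in share of the library and relative to that median. The labels do not say at which step the spike-ins were added, and a change in spike-in reads and one in piRNA reads cannot be told apart here.

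Among 22726 tested piRNA-table sequences, 434 (1.91%) were higher and 491 (2.16%) lower after oxidation by limma at an adjusted p under 0.05, with a median log2 fold change of 0.25. The libraries did not overlap for 41.7% of the sequences that were higher and 22.2% that were lower. The count depends on each library. It was 248 in all (71 higher, 177 lower) without replicate 1 before oxidation, 241 (66 and 175) without replicate 2 before, 319 (72 and 247) without replicate 1 after and 303 (67 and 236) without replicate 2 after. EdgeR with TMM scaling called 139 higher and 440 lower, scaling to methylated spike-ins gave 21 and 16240, and with no filter on low values 82 and 32 passed.

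Sequences of higher level were called more often. Of 11390 sequences with a mean of 5 to 10 RPM, 37 were higher and 231 lower. Of 1715 with 50 to 500 RPM, 193 (11.3%) were higher and 63 (3.67%) lower, and of 74 above 500 RPM, 18 (24.3%) were higher and 3 (4.05%) lower.

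The sequence of highest level, P1 from Gm21269, stood at 6535 and 6185 RPM before and 7807 and 6954 RPM after oxidation (log2 0.21, limma adjusted p = 0.293). P4 from Gm14244 rose from 3109 and 3031 RPM to 5215 and 5189 RPM (log2 0.76, limma adjusted p = 0.0378). P8, a 32-nt sequence with U at base 1 that matched no annotated transcript, rose from 2381 and 2325 RPM to 4129 and 4442 RPM (log2 0.86, limma adjusted p = 0.013). P9 from Gm10619 stood at 1719 and 2002 RPM and then at 2981 and 3425 RPM, just short of the threshold (limma adjusted p = 0.0545). The unmatched sequences P2 (31 nt), P7 (30 nt) and P10 (28 nt) were each higher in both oxidized libraries, with log2 changes of 0.47, 0.57 and 0.50 that did not pass the test.

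Others among the most abundant fell. P6, a 31-nt sequence with U at base 1 and no annotated match, went from 2589 and 2803 RPM to 412.9 and 505.6 RPM, leaving 17.0% (log2 -2.56, limma adjusted p = 0.000429). P5, of 30 nt, went from 2816 and 3210 RPM to 1662 and 1279 RPM (log2 -1.04, limma adjusted p = 0.0232). P3, of 29 nt, stood at 3703 and 3778 RPM and then at 3087 and 3166 RPM, and did not pass the test (limma adjusted p = 0.574). All 3 have the length and the 5' U of a typical piRNA, so abundant sequences of piRNA form differed widely in what remained.

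By length, the piRNA-table reads kept their peak at 30 nt, which held 25.5% of piRNA RPM in both libraries before oxidation and 27.5% and 27.2% after. The span from 26 to 32 nt held 88.0% in both libraries before and 90.0% and 89.5% after. Within that span the share moved toward longer forms, since 26 to 28 nt went from 23.1% in both libraries to 22.3% and 22.1%. The shares of 24 and 25 nt were also lower, at 25 nt 3.46% in both libraries before and 2.94% and 2.90% after. The flanks differed more in proportion. Sequences of 33 to 40 nt held 2.84% and 2.89% before and 1.55% and 1.58% after, and the longest forms differed most, since the share went from 1.41% and 1.45% to 1.15% and 1.20% at 33 nt but from 0.094% and 0.101% to 0.0128% and 0.0112% at 40 nt. Below 26 nt the 19-nt sequences stood apart, since they went from 1.07% and 1.03% to 0.408% and 0.472% whereas the 17- and 18-nt sequences together went from 0.547% and 0.529% to 0.776% and 0.896%. The mean length was 28.88 nt before and 28.87 nt after oxidation.

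**Figure D3:**
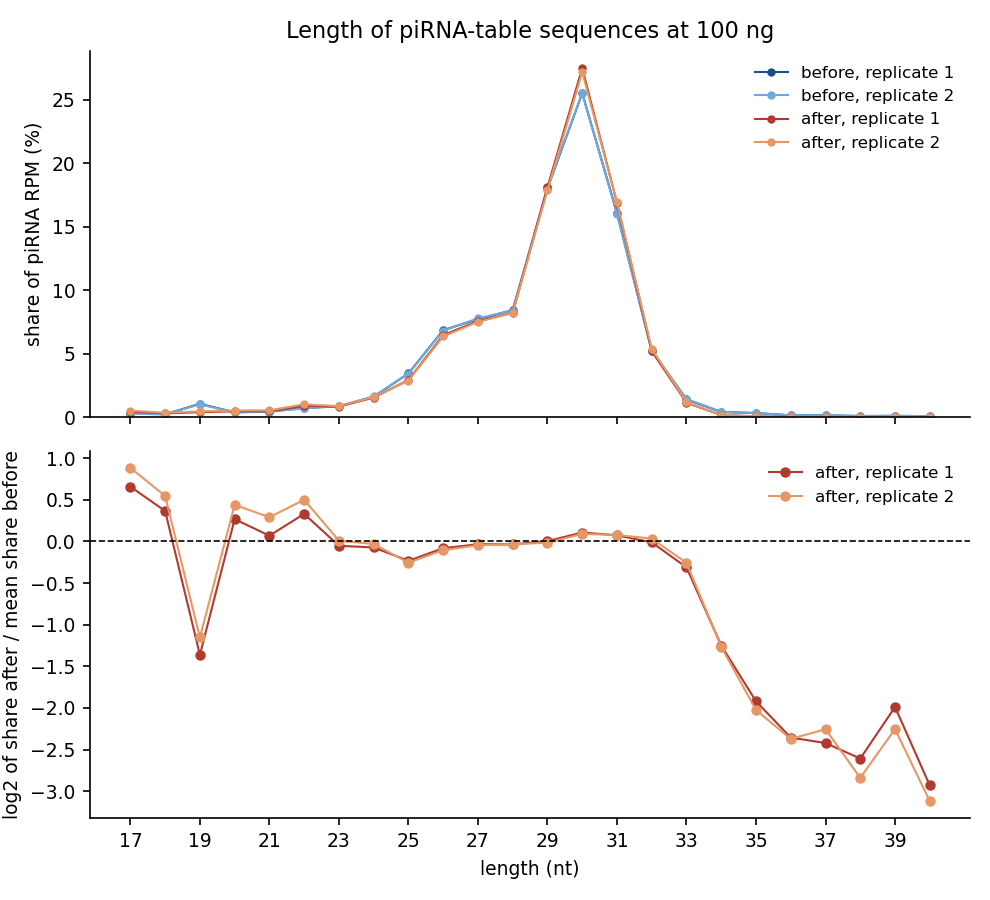
Share of piRNA RPM at each length from 17 to 40 nt in the 4 libraries (top), and log2 of the share in each oxidized library over the mean share before oxidation (bottom). The peak at 30 nt stays in place, and the bottom panel lies below 0 at 19 nt, from 24 to 28 nt and at every length from 33 nt on.

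Base composition differed by small steps. Sequences with U at base 1 held 88.5% and 88.6% of piRNA RPM before and 90.1% in both libraries after oxidation. U at base 10 went from 24.1% and 24.2% to 26.2% and 25.9%, and G at base 10 from 22.9% and 22.7% to 21.6% and 21.4%. C as the last base went from 35.6% and 35.5% to 36.9% and 37.0%, and G as the last base from 11.1% in both to 9.86% and 9.62%. Sequences of 26 to 32 nt with A at base 10 but no U at base 1, the form of secondary piRNAs, went from 4.20% and 4.15% to 3.89% and 3.88%. Of 56 such classes of length and bases, 51 had groups that did not overlap.

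The tested sequences of each class were then set beside the 1.91% higher and 2.16% lower of all tested sequences. A sequence could be tested through its level on either side alone, and the tested sequences are the abundant part of each class, so these counts describe them and not the class as a whole. Of 106 tested sequences of 17 to 18 nt, 23 (21.7%) were higher and 3 lower, with a median log2 change of 1.67. Of 263 of 20 to 22 nt, 59 (22.4%) were higher and 12 lower, with a median of 1.51. When any 1 of the 4 libraries was left out, 7 to 9 of the 106 and 16 to 20 of the 263 were called higher, and scaling to methylated spike-ins turned both medians to -0.52 and -0.63. An 18-nt example from exon 1 of 4 of Gm21269, at chr7:73818680-73818697 on the plus strand, rose from 47.2 and 46.6 RPM to 222.0 and 276.0 RPM. A 22-nt example from exon 3 of 3 of the lincRNA 1700008K24Rik, at chr17:49112655-49112676 on the minus strand, rose from 52.3 and 47.3 RPM to 138.0 and 148.4 RPM. Their first base is in capitals, and they were chosen after their values were seen:
Gm21269, 18 nt: Tagtggatttggcaatgt
1700008K24Rik, 22 nt: Aaggaagagctgttaagatgat

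The highest members of these bins matched no annotated gene. P12, of 22 nt, rose from 448.8 and 378.0 RPM to 1260 and 1566 RPM (log2 1.77, limma adjusted p = 0.000573). P13, of 17 nt and ending in CCA, rose from 292.7 and 256.7 RPM to 933 and 1030 RPM (log2 1.83, limma adjusted p = 0.00263). CCA is the 3' end that mature tRNAs carry. Of 24 tested sequences of 17 to 22 nt that end in CCA, 7 (29.2%) were higher and 0 lower. With any end, 23 of 106 were higher at 17 to 18 nt, 19 of 124 at 19 nt and 59 of 263 at 20 to 22 nt. A difference from these counts was not tested. In all piRNA-table reads, the sequences of 17 to 22 nt that end in CCA went from 0.0781% and 0.0732% of RPM to 0.179% and 0.198%. Counted as distinct sequences, without weights, they went the other way, from 0.0734% and 0.0831% to 0.0594% and 0.0595%. P23, which matched exon 1 of 4 of the lincRNA Gm12505 at chr4:55418815-55418833 on the minus strand, rose from 0.674 and 0.61 RPM to 15.8 and 29.4 RPM. Its last 3 bases are in capitals:
P23: tttcccggccaatgcaCCA

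The 19-nt sequences divided by their first base, a split chosen after the values were seen. Of 43 tested sequences with A, C or G at base 1, 42 (97.7%) were lower and 0 higher, and 38 had no read in either oxidized library. Of 81 with U at base 1, 19 (23.5%) were higher and 22 (27.2%) lower, with a median log2 change of 1.32. The highest of the first kind, P14 with C at base 1, went from 136.6 and 127.7 RPM to no read, at least 287-fold lower. Without any 1 of the 4 libraries, 36 to 38 of the 43 were called lower and 4 to 6 of the 81 higher. For the sequences with U at base 1, scaling to methylated spike-ins turned the median to -0.84. Among the other tested sequences of 17 to 22 nt, calls of a rise did not divide by first base. They were 74 of 330 (22.4%) where it was U and 8 of 39 (20.5%) where it was not. The falls among them are not given by first base here. Sequences of 19 nt are known as by-products of piRNA-guided cleavage, and those shown here, with the first base in capitals, lay in non-coding genes.
Gm20789, chr13:50564554-50564572, plus strand: Cagaaggacaatacaaaat
Gm48465, chr10:86603577-86603595, plus strand: Gacctattcagattctaac
Gm20789, chr13:50564354-50564372, plus strand: Tcagagaacaacaaggaac
Gm49794, chr17:27356011-27356029, plus strand: Tgaactggaccaggaggaa

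The sequence from Gm20789 with C at base 1 went from 18.5 and 27.4 RPM to no read, and that from Gm48465 from 15.8 and 11.6 RPM to no read. Every sequence of this set was picked among those called lower, while P23, another 19-nt sequence with U at base 1, rose. Both sequences with U at base 1 in this set fell. The one from Gm20789 went from 13.2 and 14.3 RPM to no read, and the one from the lincRNA Gm49794 from 20.2 and 22.6 RPM to 0.896 and 5.05 RPM. At the same 5' end in Gm49794, the forms longer by 1 and 2 bases fell too, from 17.2 and 13.7 RPM to 2.99 and 1.58 RPM and from 68.8 and 64.0 RPM to 23.6 and 29.1 RPM.

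Long sequences were lost more often than those of piRNA length. Of 299 tested sequences of 33 to 40 nt, 58 (19.4%) were lower and 1 higher, and of the 63 of 35 to 40 nt, 30 (47.6%) were lower and 0 higher. The first count was 31 to 40 without any 1 of the 4 libraries. At 33 nt, 17 of 189 were lower, and P9 was among the members that were not. P15, of 37 nt and with A at bases 1 and 10, went from 128.5 and 130.2 RPM to no read, at least 281-fold lower. P16, of 34 nt, went from 75.2 and 70.4 RPM to no read. For 2 long sequences in non-coding genes the bases past position 32 are in capitals. The first lay in exon 5 of 5 of Gm10619 at chr7:73809462-73809495 on the minus strand and went from 17.5 and 27.7 RPM to 3.59 and 2.21 RPM. The second lay in exon 2 of 2 of the pseudogene Gm18009 at chr6:128447433-128447471 on the minus strand and went from 9.11 and 9.15 RPM to no read.
Gm10619, 34 nt: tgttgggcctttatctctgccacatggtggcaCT
Gm18009, 39 nt: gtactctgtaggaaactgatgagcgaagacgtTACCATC

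Matches to annotated transcripts also separated the tested sequences. Of the 22726, 3116 (13.7%) matched a GENCODE M21 transcript on either strand, 2288 of them on the sense strand of exactly 1 gene. Of 19610 sequences with no match, 376 were higher and 371 lower, and of 2725 that matched 1 gene, 53 and 46. Of 113 that matched over 20 genes, as repeated elements do, 48 (42.5%) were lower and 2 higher, with a median log2 change of -1.75. This grouping was chosen after the values were seen, and 36 to 38 of the 113 were lower without any 1 of the 4 libraries. It overlaps with length, since 27 of the 113 were 19-nt sequences and 25 of those were lower. Within 26 to 32 nt, 17 of 59 (28.8%) were lower against 274 of 17896 (1.53%) with no match. P18, of 30 nt and with U at base 1, matched 621 genes and went from 54.3 and 67.4 RPM to no read.

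**Figure D4:**
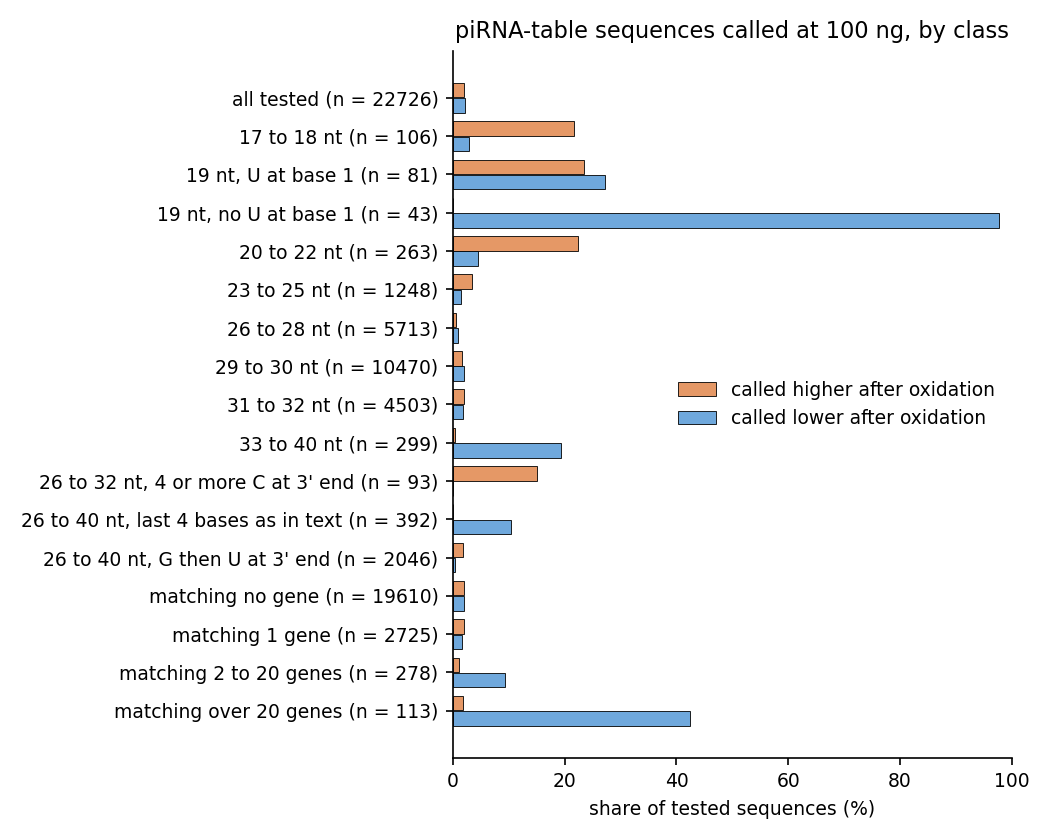
Share of the tested piRNA-table sequences of each class that were called higher (orange) or lower (blue) after oxidation at 100 ng (x axis, percent), with the number tested beside each class. The last 4 bases referred to are GACT. The bars of 19-nt sequences without U at base 1 (97.7% lower) and of sequences that match over 20 genes (42.5% lower) stand far above those of all tested sequences (1.91% higher and 2.16% lower).

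The last bases of sequences with piRNA length were examined next, and the classes in this paragraph were chosen after the values were seen. Of 93 tested sequences of 26 to 32 nt that end in 4 or more C, 14 (15.1%) were higher and 0 lower, with a median log2 change of 0.84. For 3 C at the end it was 21 of 442 (4.75%) higher and 11 lower, and for no C 143 of 12804 (1.12%) higher and 233 lower. Without any 1 of the 4 libraries, 3 to 4 of the 93 were called higher, edgeR with TMM called 8 higher, and scaling to methylated spike-ins turned the median to -1.23. P20, of 30 nt and ending in CCCC, rose from 4.38 and 1.22 RPM to 124.9 and 135.8 RPM (log2 5.25, limma adjusted p = 0.00161), and P22, of 31 nt with the same ending, from 1.01 and 0.915 RPM to 23.9 and 30.6 RPM. P21, of 23 nt and ending in CC, rose from 1.35 and 1.83 RPM to 43.6 and 46.1 RPM.

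Gm49794 gave a ladder of such ends from a single 5' end at chr17:27358462 on the plus strand, in exon 1 of 2, where each longer form adds 1 C. The run of C at the end is in capitals:
28 nt: tctcagatcttgacactagaataacaCC
29 nt: tctcagatcttgacactagaataacaCCC
30 nt: tctcagatcttgacactagaataacaCCCC
31 nt: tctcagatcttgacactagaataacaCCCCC
32 nt: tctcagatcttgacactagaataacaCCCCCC

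The 28-nt form went from 32.4 and 28.96 RPM to 17.9 and 18.3 RPM and the 29-nt form from 32.04 and 30.5 RPM to 43.6 and 28.1 RPM, and neither passed the test. The 30-nt form rose from 7.76 and 9.15 RPM to 48.4 and 48.3 RPM (log2 2.39, limma adjusted p = 0.0126) and the 31-nt form from 10.8 and 13.7 RPM to 54.1 and 55.3 RPM (log2 2.08, limma adjusted p = 0.0314). The 32-nt form stood at 2.36 and 2.44 RPM and then at 15.5 and 5.68 RPM (limma adjusted p = 0.186). Forms ending in 4 or 5 C rose while those with 2 or 3 were lower in both oxidized libraries or overlapped. This 5' end was picked for having the most forms with 4 or more C called higher. Those rises were thus fixed by the choice and add no support to the class.

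The opposite was seen for sequences that end in GACT, a class also chosen after the values were seen. Of 392 tested sequences of 26 to 40 nt with this end, 41 (10.5%) were lower and 0 higher, with a median log2 change of -0.51 against 0.25 over all tested sequences. With A, C or T in place of the G, 10 of 252, 7 of 258 and 2 of 140 were lower. All of these are part of the 2925 sequences that end in CT, of which 121 (4.14%) were lower and 24 higher, while of 2046 that end in GT 8 (0.391%) were lower and 38 higher. The count of 41 fell to 5 to 12 without any 1 of the 4 libraries, and edgeR without TMM gave 20. The examples below, all picked among those called lower, come from 6 non-coding genes, with the end in capitals:
1700008K24Rik: tagctgatcagctggttggtgagGACT
Gm21388: ctgagactaaagttggaggcccaggaGACT
Gm21269: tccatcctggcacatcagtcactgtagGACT
Gm30132: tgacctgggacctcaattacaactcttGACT
Gm2762: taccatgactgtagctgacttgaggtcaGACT
1700029M20Rik: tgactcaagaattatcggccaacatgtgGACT

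In 1700029M20Rik, at chr4:135629837-135629868 on the plus strand, the sequence went from 42.2 and 32.3 RPM to 4.18 and 6.63 RPM. In Gm2762, at chr13:53402624-53402655 on the plus strand, it went from 35.4 and 35.7 RPM to 4.48 and 5.37 RPM. In Gm21269 it went from 17.5 and 21.6 RPM to 1.49 and 1.26 RPM, in Gm30132 from 14.2 and 12.5 RPM to 1.49 and 0.632 RPM, and in 1700008K24Rik from 11.8 and 7.01 RPM to 1.20 and 0.632 RPM. The sequence from Gm21388 had 8.77 and 18.6 RPM before and no read after oxidation. P17, which has the same end and matched no gene, went from 68.1 and 63.1 RPM to no read, at least 142-fold lower.

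A fall and a rise could occur at a single 5' end. The lincRNA 1700001L05Rik has a 5' end on the minus strand of chromosome 15 (exon 3 of 3) with forms of 29 to 32 nt, the longest at chr15:83355248-83355279. The bases past position 29 are in capitals, and the 30-nt form is the one that ends in GACT:
29 nt: tgctgactagttacgaaattccagtagac
30 nt: tgctgactagttacgaaattccagtagacT
31 nt: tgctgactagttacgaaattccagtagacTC
32 nt: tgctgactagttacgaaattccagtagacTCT

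The 30-nt form fell from 163.2 and 169.2 RPM to 54.4 and 70.7 RPM (log2 -1.41, limma adjusted p = 0.00878). The 31-nt form, longer by a C, rose from 578.7 and 565.5 RPM to 1020 and 1004 RPM (log2 0.82, limma adjusted p = 0.0132). The 29-nt form was at 17.2 and 18.6 RPM and then at 23.9 and 26.8 RPM, and the 32-nt form at 28.3 and 12.2 RPM and then at 14.9 and 32.8 RPM, and neither passed the test. For the 32-nt form the groups overlapped, and its log2 change of 0.24 became -0.34 or -0.30 without replicate 2 before or after oxidation. Of 4929 sets of tested sequences with the same first 20 bases, 229 had a lower member, 209 a higher one and 2 both.

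**Figure D5:**
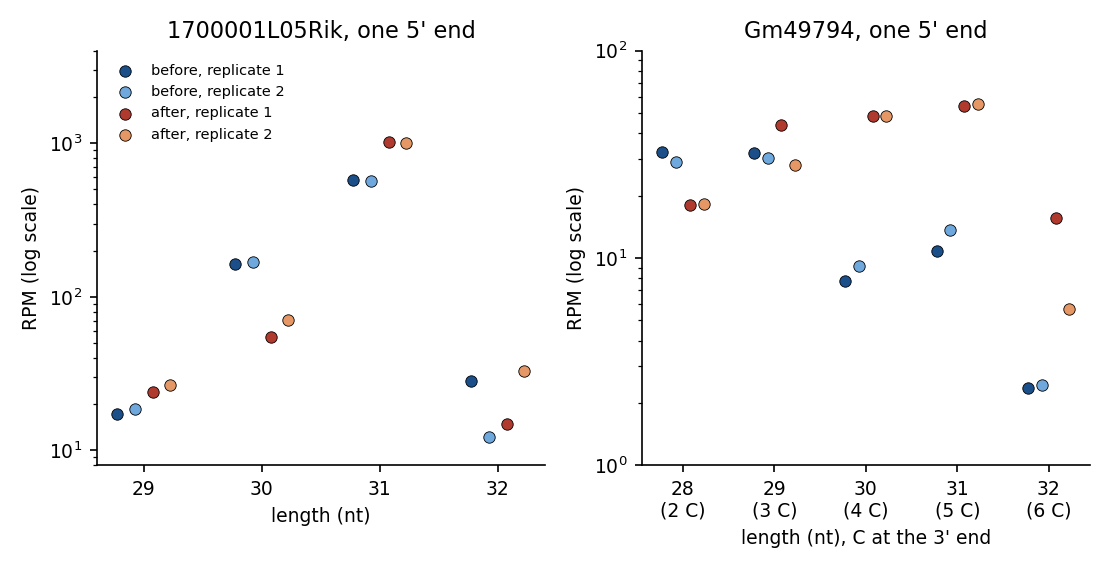
RPM (y axis, log scale) of the length forms of a single 5' end in 1700001L05Rik (left) and in Gm49794 (right, with the number of C at the 3' end in brackets) in the 4 libraries at 100 ng. On the left the 30-nt form lies lower and the 31-nt form higher after oxidation, and on the right the forms with 4 and 5 C lie higher in both oxidized libraries.

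Over all families the median length hardly differed, and the larger differences were more often toward shorter forms. For 2367 families of sequences with the same first 20 bases and a mean of at least 50 RPM, the RPM-weighted mean length was shorter after oxidation, without overlap, in 713 (30.1%) and longer in 655 (27.7%). The median difference was -0.0074 nt. A difference of over 0.5 nt was seen in 213 families that became shorter and 102 that became longer. Of the 4 families with the highest level, 2 became shorter. In one, whose most abundant form had 30 nt, the mean length went from 30.24 and 30.33 nt to 29.93 and 29.94 nt, and in the one that holds P10 from 29.21 and 29.16 nt to 28.64 and 28.59 nt. In the family of P2 it went from 30.05 nt in both libraries to 30.10 and 30.09 nt, and in that of P1 the groups overlapped.

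The 12 genes with the highest summed level of sense sequences also differed among themselves. Sequences of Gm21269 summed to 12733 and 12314 RPM before and 15571 and 14618 RPM after oxidation, 1.21-fold, close to the 1.22-fold of all tested sequences together. Gm14244 had the highest ratio of the 12, from 4352 and 4307 RPM to 7196 and 7164 RPM, or 1.66-fold. P4 alone held 3109 and 3031 RPM of that sum before and 5215 and 5189 RPM after oxidation. 1700001L05Rik went from 6431 and 6777 RPM to 10017 and 10473 RPM (1.55-fold) and Gm10619 from 3704 and 3952 RPM to 5615 and 6163 RPM (1.54-fold). In Gm10619, P9 alone held 1719 and 2002 RPM before and 2981 and 3425 RPM after. Gm10505 was the single gene of the 12 whose sum was lower, from 1724 and 1704 RPM to 1301 and 1397 RPM. In each of the 12 the groups did not overlap. The share over all genes is not given here, and single tested sequences did not overlap in 41.7% (higher) and 22.2% (lower). Within Gm21269 the log2 changes of its 322 tested sequences ran from -3.90 to 3.55.

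Among the tested piRNA-table sequences 28 matched a miRNA hairpin. One was a 21-nt sequence equal to bases 2 to 22 of miR-26a-5p, which starts a base after the mature miRNA, at chr9:119031812-119031832 on the plus strand in Mir26a-1 and also in Mir26a-2. It went from 48.2 and 51.5 RPM to no read, at least 108-fold lower, while miR-26a-5p itself went from 2818 and 2802 RPM to 3.59 and 3.16 RPM. The bases of the miRNA's seed are in capitals:
miR-26a fragment: TCAAGTAatccaggataggct

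The hairpin Mir7217 lies inside exon 1 of Gm49794 on chromosome 17 and gave 12 tested piRNA-table sequences, 2 of which were lower. The highest before oxidation among those not called, a 23-nt sequence at chr17:27355770-27355792, stood at 40.5 and 33.2 RPM and then at 47.2 and 49.3 RPM. Its log2 change was 0.39 ± 0.88 (limma adjusted p = 0.914), and from its base 9 on it holds the first 15 bases of miR-7217-3p. Of the other forms with its 5' end, those of 21, 24 and 25 nt were lower in both oxidized libraries but not called. The 25-nt form went from 9.44 and 11.3 RPM to 2.99 and 0.947 RPM. Those of 22 and 26 to 30 nt overlapped. A 28-nt sequence just before the 23-nt one, at chr17:27355750-27355777, went from 31.4 and 26.5 RPM to no read, at least 62.8-fold lower. The other lower sequence, of 27 nt, has the same 3' end. The 8 bases that the 23- and 28-nt sequences share are in capitals:
kept, 23 nt: TACGGCCCtgagaacccacaagc
lost, 28 nt: gtgagacagaagggcacgccTACGGCCC

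Fewer distinct sequences were seen after oxidation. The piRNA table had a read for 324287 and 324970 sequences before and for 210525 and 188307 after, at similar depth. A set of 66922 sequences was seen in all 4 libraries and held 75.9% of piRNA RPM before and 82.3% after. In both libraries before oxidation and in neither after were 47087 sequences, which held 5.599% of piRNA RPM before and reached at most 136.6 RPM. The reverse held for 9386 sequences with 1.32% of piRNA RPM after oxidation. P25, a 17-nt sequence ending in CCA, was named among these, with no read before and 26.9 and 38.5 RPM after, at least 68.1-fold higher. P24, of 30 nt, had 1 read in each library before oxidation (0.337 and 0.305 RPM) and 19.4 and 18.6 RPM after.

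The oxidation effect at 100 ng was also compared with that at the other inputs. With 50 ng, 1312 piRNA-table sequences were higher and 781 lower after oxidation, and with 10 ng 4864 were higher and 7154 lower, with median log2 changes of 0.20 and -0.69. The test of the difference between 100 and 50 ng called 0 miRNAs and 0 piRNA-table sequences in either direction (0.0% each) by limma, with 24 and 568 at an unadjusted p under 0.05. Other settings called a few miRNAs, 7 in the higher and 1 in the lower direction when scaled to methylated spike-ins, 1 lower with a pseudocount of 0.1, and 0 to 4 in all with 1 library left out. Between 100 and 10 ng, the effect differed for 18 miRNAs in the higher (12.8%) and 34 in the lower direction (24.1%), and for 4793 (21.1%) and 1796 (7.9%) piRNA-table sequences. The direction for miRNAs depended on the scaling, since relative to methylated spike-ins 41 were higher and 25 lower (7191 and 517 piRNA-table sequences). With a pseudocount of 0.1, 6 miRNAs were higher and 12 lower. P4 and P8, which rose at 100 ng, had log2 changes of -1.37 and -1.22 at 10 ng, and their differences of 2.13 and 2.08 passed the test (limma adjusted p = 0.000604 and 0.000443). P12 rose less at 100 ng than at 10 ng, by 1.77 against 2.81 (limma adjusted p of the difference = 0.00651). P14 and P15 had no read after oxidation at 100 ng, and for them the test of the difference from 10 ng did not pass (limma adjusted p = 0.246 and 0.97).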

How the data were processed

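Small RNA of 17 to 40 nt from mouse testis was sequenced by the authors, who deposited RPM values for 1915 miRNA names and 1018402 piRNA sequences and raw read counts of 6 spike-ins. Bowtie and the builds mm10 and hg38 appear in the submitters' processing notes, with no role for hg38. How multi-mapped reads were counted is not given in these sources. The RPM denominator was recovered from the step of 1 read. All piRNA values were whole reads within 0.01, and 93.24% to 97.23% of miRNA values.

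A mean over the 12 libraries of 5 RPM or more was required for testing, which left 141 miRNAs and 22726 piRNA sequences. Values of log2(RPM + 1) were fitted to 6 group means with limma-trend (limma 3.58.1, R 4.3.3), and calls were made at a Benjamini-Hochberg adjusted p under 0.05. Tested sequences were matched without mismatch to GENCODE M21 transcripts (GRCm38) on both strands. No genome was searched, so unmatched sequences have no position here.

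The members, lists and rules for naming were chosen with earlier results of these data known. Named miRNAs were the highest, the most changed the top 2 of each list and those that differed most from 10 ng. Named piRNA sequences (P1 to P25) were the 6 highest before and after oxidation, the 6 largest falls and rises, and the highest of each length bin. Other sequences shown, and the other miRNAs named, were chosen after their values were seen. Alternatives changed the pseudocount, filter, scaling, libraries, block and tool (edgeR 4.0.16, on recovered piRNA reads). The fit was also tested on simulated data.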

Additional observations from a re-analysis of the deposited data

Results flagged for a closer look

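The effect of oxidation at 100 ng differed from that at 10 ng, by limma's test of the difference itself, for 18 miRNAs in the higher and 34 in the lower direction of 141, and for 4793 and 1796 piRNA-table sequences of 22726. Scaled to methylated spike-ins, the miRNAs numbered 41 in the higher and 25 in the lower direction. With groups of 2 libraries, single libraries were not examined as outliers.

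The 3 named miRNAs with the strongest evidence of a difference fell more at 100 ng. For miR-148b-3p, which shares its seed with miR-148a-3p, the log2 difference of the effect was -2.89 (limma adjusted p = 0.000543), with changes of -7.57 at 100 ng and -4.68 at 10 ng. For miR-203-3p it was -1.50 and for miR-883a-3p, of the X-linked cluster, -1.64 (limma adjusted p = 0.00116 and 0.00117). The last 2 had no read after oxidation at 100 ng, so the size of these differences depends on the pseudocount. With a pseudocount of 0.1, 1 of the 3 differences no longer passed the test.

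Among the 7 miRNA names whose change at 100 ng did not pass the test, the effect differed from that at 10 ng for 3. The log2 difference was 3.63 for miR-7217-3p (changes of -1.56 at 100 ng and -5.19 at 10 ng), -1.96 for miR-7214-5p (-0.37 and 1.59) and -3.35 for miR-468-5p (0.72 and 4.08), with limma adjusted p of 0.0316, 0.0439 and 0.0285.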

How the results depend on the processing

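The count of miRNAs changed at 100 ng, 134 of 141, was 263 of 496 with no filter on low values and 66 of 66 at a mean of at least 50 RPM, since other numbers were tested, and 133 to 134 when 1 of the 4 libraries was left out. The count of piRNA-table sequences, 925 in the report, was 114 with no filter, 467 (351 higher, 116 lower) at 50 RPM, 16261 scaled to methylated spike-ins, 5207 (3387 and 1820) in the 4 libraries alone, 579 by edgeR with TMM and 241 to 319 with 1 library left out. Differences from 10 ng numbered 18 miRNAs with a pseudocount of 0.1 (36 to 50 with 1 library left out) and 3933 to 4840 piRNA-table sequences with 1 library left out. The causes were not tested. EdgeR was not run on miRNAs, whose values are not all whole reads.

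Single values moved as follows. The log2 change of summed miRNAs was -11.39 per methylated spike-in read, and that of summed piRNAs turned to -2.27 per methylated spike-in read and to -0.020 as a share of reads other than miRNA reads. Per sp3Me read alone it was -1.20. The unmethylated share changed by -8.99, -10.10 and -8.53 in the single pairs. Counting distinct sequences in place of RPM, the share of 33 to 40 nt fell by 3.02 percentage points (by 1.30 with RPM), and those of 17 to 18, 20 to 22 and 26 to 28 nt turned to -0.38, -1.19 and 1.54 points. The 47087 sequences seen before oxidation alone became 64175 to 183979 with 1 library left out.

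Scaled to methylated spike-ins, log2 changes turned to -1.14 for miR-5099, -0.78 for miR-468-5p, -2.25 for P1, -2.002 for P2, -1.71 for P4, -1.90 for P7, -1.60 for P8, -1.68 for P9, -1.97 for P10, -0.70 for P12 and -0.63 for P13. They turned to -1.88, -1.64 and -2.10 for the 29-, 31- and 32-nt forms of 1700001L05Rik, to -2.24, -0.29 and -0.40 for those of 29, 31 and 32 nt of Gm49794, to -0.46 for its 22-nt sequence, to -0.93 for that of 1700008K24Rik, to -0.067 for the 18-nt sequence of Gm21269 and to -2.02 for the 23-nt sequence of Mir7217. EdgeR with TMM turned P1 to -0.086, the 32-nt form of 1700001L05Rik to -0.055 and the 29-nt form of Gm49794 to -0.10. With 1 library left out, changes ran from -0.26 to 1.70 for miR-468-5p, from -0.34 to 0.82 for the 32-nt form of 1700001L05Rik and from -0.15 to 0.47 for the 29-nt form of Gm49794. A part of the 57 named piRNA-table sequences, P1 and P9 among them, was not called with all libraries, so only the others had a call to lose. Of 57 named piRNA-table sequences, 19 to 23 lost their call with 1 library left out.

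Replicate numbers did not pair the libraries (correlation of same-numbered deviations -0.133 over miRNAs and 0.00996 over piRNA-table sequences). With a replicate block 134 miRNAs and 676 piRNA-table sequences were called, and 46 miRNAs differed from 10 ng. With crossed numbers, an alternative chosen after seeing the data, 134 miRNAs were called and 49 differed from 10 ng. Depth limits the weak end, since 3 reads were worth 0.896 to 1.01 RPM.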
